A study of Mus musculus with 6 samples.

Results

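The array labelled 3 h after estradiol, 1 of the 6 arrays of this series, was set against the other 5 arrays to describe which tissue-restricted transcripts its RNA held and which uterine transcripts were low in it. All 6 arrays are labelled as uterus of C57BL/6 female mice of 10 to 11 weeks whose ovaries had been removed 7 days before death, so the controls shared the surgery. The groups are a vehicle array, from mice injected 24 h before death, and estradiol arrays, from mice given 0.05 µg of the hormone subcutaneously at 1, 3, 6, 12 and, for the last array, 24 h before death. The labels name no mutation or transgene. Adhering tissue was cleaned off and uteri were pooled before RNA extraction, so each group is a single pool read on a single array. The labels give 10 mice without stating whether that is the number per pool. A time of 0.5 h in the protocol was not analysed here. For each pool 20 µg of RNA was labelled and read on the Affymetrix U74Av2 array, which covers each gene with 1 or more probe sets. The members of the comparison were all 7969 autosomal genes that could be named from a probe set with a single gene symbol.

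The uterus is built from a simple epithelium of lumen and glands, a stroma that carries the estrogen and progesterone receptors, and an outer smooth muscle coat, the myometrium. Estradiol acts through the estrogen receptor, evokes a short burst of early response genes in the stroma and epithelium, and is followed by growth and differentiation of the epithelium. Skeletal muscle is striated muscle of fast and slow fibres, each with its own set of myosins, troponins and calcium pumps, and it is no part of the uterine wall. Bone marrow makes granulocytes, red cells, platelets and B lymphocytes, and is enclosed by bone that osteoblasts lay down and osteoclasts resorb. Cartilage caps the bone ends and forms the growth plate.

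The RNA on the array labelled 3 h did not carry all of the gene content its label names. Of 109 genes on the uterine lists, 49 were at least 2-fold below the mean of the other 5. A further 8 were at least 2-fold above it, and the rest were neither. Transcripts of skeletal muscle, of marrow blood cells and of bone were high on this array, many of them below the floor on the other 5 and some, such as hemoglobin, bright there too, and the keratins, smooth muscle proteins, posterior Hox genes and steroid receptors found on the other 5 were low or below the floor. The array is therefore called by its label only, and whether mice, tissue, RNA or labels were the source of the difference was not tested. Where 5 values follow that of the array labelled 3 h, they are those of the vehicle, 1 h, 6 h, 12 h and 24 h arrays in this order. Throughout, a signal is the scaled intensity of the gene's brightest probe set, and signals under the floor of 143.4 were treated as not measured and raised to that floor before log2 was taken. Some of the markers chosen to define each tissue, Hbb-b1, Bglap, Comp, Oxtr and Tbx5 among them, were not analysed here. The log2 difference is that of the array labelled 3 h minus the mean of the other 5, and a fold whose dimmer side touched the floor is written as "at least". With 1 array per group no error between replicates exists, so no test was run and genes were counted at a minimum of 2-fold. The other 5 arrays are different treatments, and their range contains the response to estradiol. As these were bulk pools, fewer cells of a type and less RNA per cell cannot be told apart.

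At least 2-fold above the mean of the other 5 were 622 of 7969 genes (7.81%), and 571 genes (7.17%) were at least 2-fold below it. Counted against the most extreme of the other arrays, 413 genes (5.18%) lay at least 2-fold above the highest of the 5 and 234 genes (2.94%) at least 2-fold below the lowest. The gene lists were chosen with earlier results of these data known, so their counts and medians describe the array and are no independent evidence. The 5 skeletal muscle lists held 87 genes, of which 51 were higher and 1 lower by the 2-fold minimum against the mean. Their median log2 difference was 2.04 against 0.0 over all genes. On the 7 lists of marrow and blood cells 77 of 150 genes were higher and 6 lower, with a median of 1.20. On the 4 lists of bone, cartilage and tendon 32 of 83 genes were higher and 3 lower, with a median of 0.36. On the 3 uterine lists the order turned round, since 8 of 109 genes were higher and 49 lower, with a median of -0.72. Of the 25 genes with the highest differences among bright genes, 13 were on the muscle lists, 8 on the marrow lists and 2 on the bone lists, with Mmp9 on both of the latter. Of the 25 with the lowest differences, 12 were on the uterine lists. Above the floor on the array labelled 3 h and on no other array were 227 genes, 31 of them on the muscle lists, 36 on the marrow lists, 9 on the bone lists and 0 on the uterine lists. Below the floor on this array and above it on all the others were 282 genes, 29 of them uterine.

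**Figure D1:**
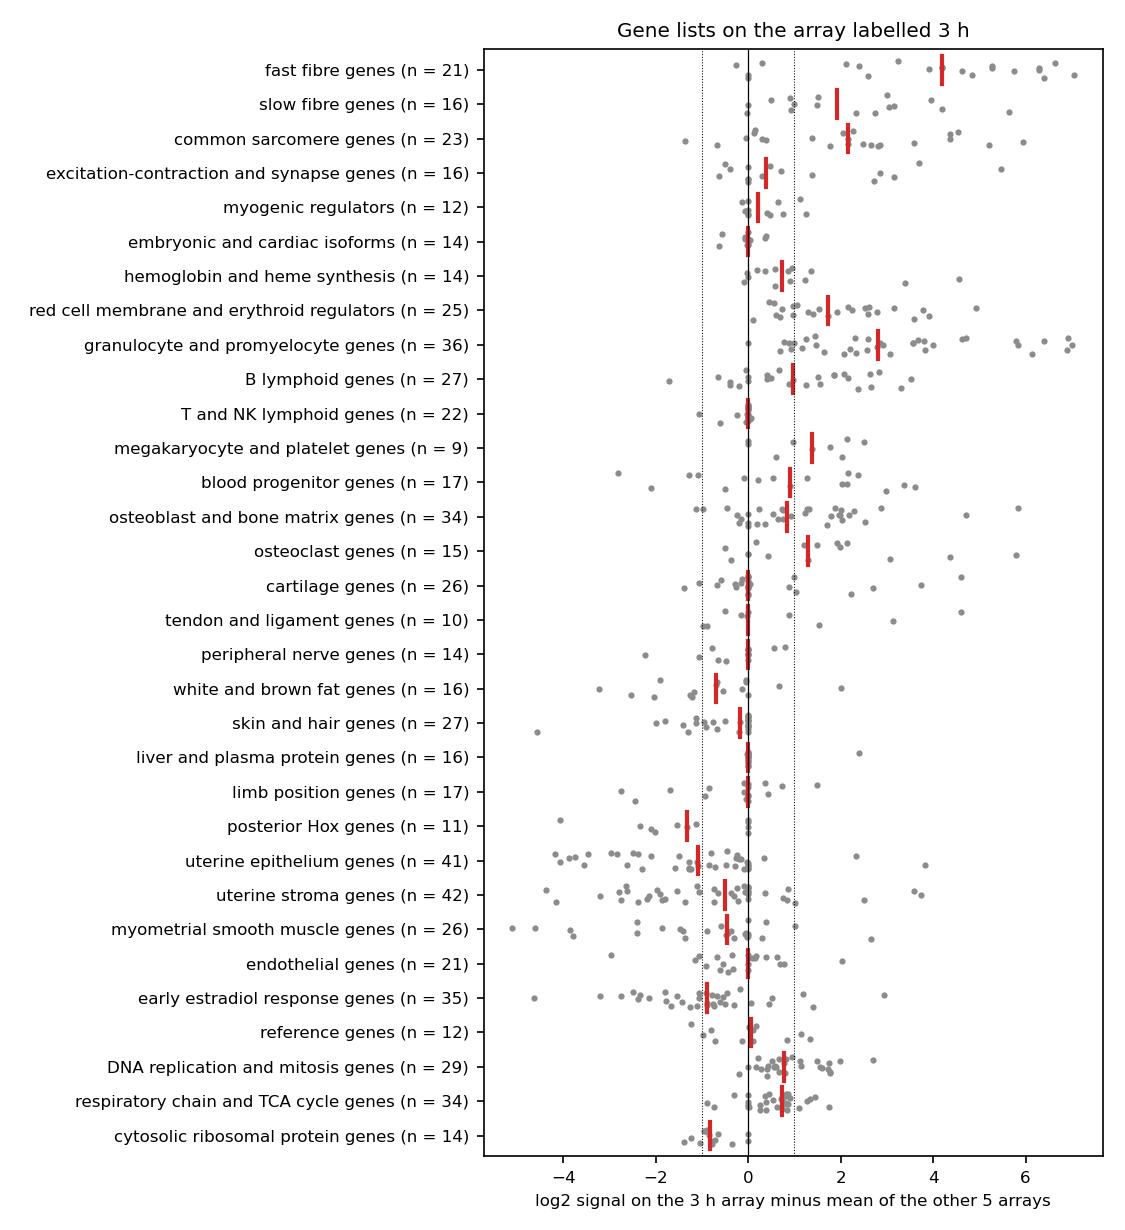
Log2 difference (horizontal axis, array labelled 3 h minus the mean of the other 5) of every list member found on the array, with a grey point per gene, a red bar for the list's median and dotted lines at 2-fold either way. Fast fibre genes stand highest at 4.20 and posterior Hox genes lowest at -1.32.

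The technical values of the arrays were alike except for the spike-in controls and the correlation between arrays. The share of probe sets at or above the floor was 58.8% on the array labelled 3 h and 58.9% to 61.7% on the others, the actin control gave a 3'/5' ratio of 1.22 against 1.13 to 1.25, and the Gapdh control 0.878 against 0.793 to 0.892. Across probe sets, which are not independent replicates, the rank correlation of the array labelled 3 h with the others was 0.843 to 0.857, while the others correlated with each other at 0.929 to 0.968. All 9 spike-in probe sets were lower on it than on any other array, with a median log2 difference of -1.61 and a median signal of 666 against 1404 to 3031. The part of the spike-in difference in the results below was not tested.

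Fast-twitch fibre genes gave the largest differences. Of the 21 on the list, 17 were at least 2-fold higher than the mean of the other 5, and the same number were so above the highest of them, none was lower, and the median log2 difference was 4.20. Atp2a1, the calcium pump of the fast-fibre sarcoplasmic reticulum, read 19855 on the array labelled 3 h, and 151, 133, 52.8, 167 and 103 on the other arrays. The other 5 arrays sat at or below the floor except for 2 signals just over it, and the difference was at least 133-fold, the highest of all bright genes. A second probe set of Atp2a1 read 13255 on the array labelled 3 h and 9.74 to 16.2 on the others.

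The adult fast myosin heavy chains, the motor proteins of fast fibres, did not all behave alike. Myh4, the chain of type IIb fibres, read 14274 on the array labelled 3 h, and 1.31, 5.22, 4.22, 24.2 and 15.1 on the other arrays. Myh1, the chain of type IIx fibres, read 11187 on the array labelled 3 h, and 46.1, 41.6, 7.04, 11.1 and 33.0 on the other arrays. Both were measured on the array labelled 3 h only, at at least 99.5-fold and at least 78.0-fold. Myh2, the chain of type IIa fibres, read 8.03 there and 5.83 to 22.2 elsewhere, below the floor on every array. A second probe set of Myh4 did not follow the first: it read 65.1 on the array labelled 3 h and 49.8 to 255 on the others. Myosin heavy chain genes are close in sequence, so a probe set of this family can read more than its own gene.

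The fast troponins and light chains were high with the heavy chains. Tnnt3, the fast tropomyosin-binding subunit, read 12021 against 19.9 to 73.2 (at least 83.8-fold). Tnnc2, the fast calcium-binding subunit, read 6902 against 143 to 193 (at least 38.7-fold). Tnni2, the fast inhibitory subunit, read 753 against 10.7 to 83.7 (at least 5.25-fold). With these probe sets the highest of the other arrays was in each case far under the array labelled 3 h. That of Tnnc2 is of the family type, which similar genes can share. A second probe set of Tnnc2 stayed below the floor, at 9.13 on the array labelled 3 h and 6.82 to 20.7 on the others. Myl1, the essential light chain of fast myosin, read 17662 on the array labelled 3 h, and 300.1, 311, 175, 194 and 181 on the other arrays, and the others were above the floor, so the 78.6-fold difference is measured on both sides. Actn3, the fast-fibre alpha-actinin of the Z-disc, read 8475 against 29.4 to 194 (at least 53.6-fold).

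Glycolytic enzymes of fast fibres belonged to the same set. Pygm, muscle glycogen phosphorylase, read 8993 on the array labelled 3 h, and 245, 219, 178, 225 and 311 on the other arrays, a 38.8-fold difference. Pgam2, the muscle form of phosphoglycerate mutase, read 4089 and no more than 7.84 on the others. Casq1, which stores calcium in the fast sarcoplasmic reticulum, was 24.5-fold higher, the muscle enolase Eno3 18.4-fold and the muscle phosphofructokinase Pfkm 15.1-fold. Pvalb, the calcium buffer parvalbumin, read 16892 against 1193 to 2852 with its brighter probe set, and 4679 against 2.81 to 47.9 with the dimmer. The 4 members of the list that missed the minimum were Myh2 and Fbp2, both below the floor on all 6 arrays, and the glycerol phosphate dehydrogenases Gpd1 (log2 difference 0.31) and Gpd2 (-0.26), which are expressed widely outside muscle.

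**Figure D2:**
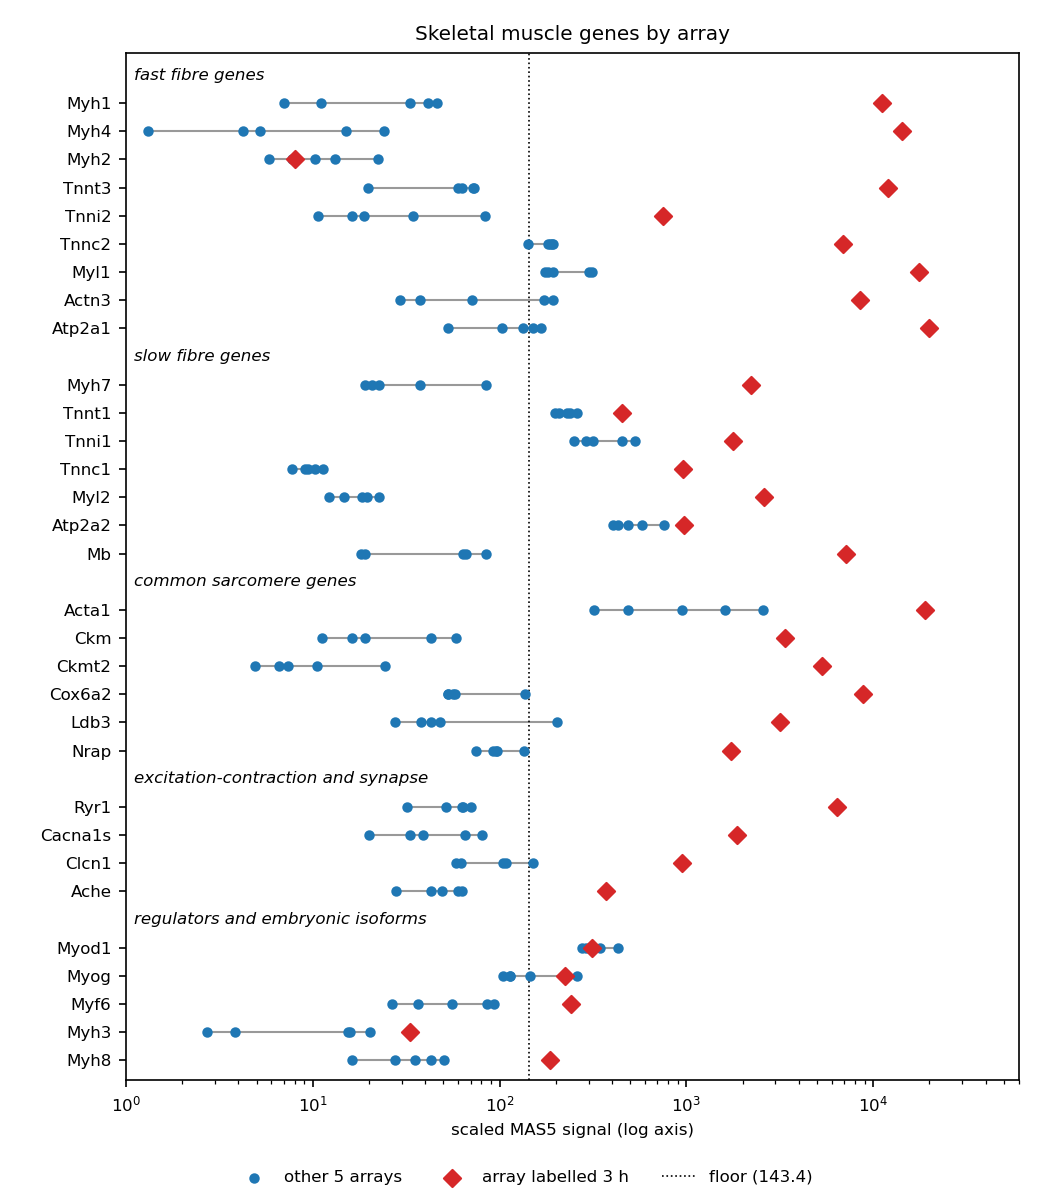
Scaled signal (horizontal log axis) of skeletal muscle genes, with the array labelled 3 h as a diamond, the other 5 arrays as circles and the floor of 143.4 as a dotted line. Most fast and slow fibre genes and common sarcomere genes shown sit far to the right of the other arrays, with Tnnt1 and Atp2a2 closer to them. Myh2, Myod1 and Myog lie within the range of the other arrays, and the embryonic myosin Myh3 stays below the floor.

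For 2 of the genes that lead the list, the promoter is shown because E-boxes, the letters CAGCTG that myogenic factors are known to bind, were the motif most often found upstream of the fast fibre genes. Sequences are from RefSeq (GRCm38.p6), read 5′ to 3′ on the gene's strand, and cover the 150 bases before the annotated start. Capitals mark motif matches, here CAGCTG in both genes and, in Myh4, also TATAAA near the end and a CArG box upstream of the E-box. Atp2a1 lies at chr7:126463074-126463223 on the minus strand and Myh4 at chr11:67237662-67237811 on the plus strand.
Atp2a1: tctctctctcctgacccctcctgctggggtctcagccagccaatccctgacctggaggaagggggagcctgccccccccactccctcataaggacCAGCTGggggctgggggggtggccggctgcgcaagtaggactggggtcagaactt
Myh4: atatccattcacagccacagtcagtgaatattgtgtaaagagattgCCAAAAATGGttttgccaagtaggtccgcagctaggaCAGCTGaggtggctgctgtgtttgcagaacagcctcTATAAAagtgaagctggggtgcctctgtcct
In the 250 bases before the start, CAGCTG, which reads the same on both strands, was found in 8 of 17 promoters (47.1%) of the 13 fast fibre genes at 2-fold that the promoter table holds, and in 8 of 14 promoters (57.1%) of 12 common sarcomere genes, against 13.0% of all 32851 promoters. The CArG box, the site of serum response factor, was found in 4 of the 14 sarcomere promoters (28.6%), of 3 genes, and in 1.47% of all promoters. TGTGGT, the letters of a Runx site, was found on either strand in 6 of the same 14 (42.9%) against 14.0% of all promoters. Among the 17 fast fibre promoters it was found in 1 (5.88%). These are letter matches within a fixed window and no measure of binding.

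Slow-twitch fibre genes were present as well. Of 16 genes 10 were higher, all 10 also above the highest other array, none was lower, and the median log2 difference was 1.92. Myh7, the slow myosin heavy chain, read 2222 on the array labelled 3 h, and 22.6, 19.1, 84.5, 20.8 and 37.4 on the other arrays. Its at least 15.5-fold difference comes from a probe set of the family type, which several similar genes can share, and a second probe set read 122 on the array labelled 3 h and 50.7 to 195 on the others. Myl2, the slow regulatory light chain, read 2606 against 12.2 to 22.6 (at least 18.2-fold).

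Each of the 3 slow troponins was highest on the array labelled 3 h, and the sizes differed. Tnnc1, the calcium-binding subunit of slow and cardiac muscle, read 960.4 against 7.74 to 11.4 (at least 6.7-fold). Tnni1, the slow inhibitory subunit, read 1774 against 251 to 528 (5.02-fold). Tnnt1, the slow tropomyosin-binding subunit, read 450.1 against 199 to 259, just under the minimum with a log2 difference of 1.00. A second, dimmer probe set of Tnnt1 read 2406 on the array labelled 3 h and 47.2 to 193 on the others. Genes of oxidative fibres went the same way: Mb, the oxygen store myoglobin, read 7136 on the array labelled 3 h, and 64.0, 18.1, 84.1, 65.8 and 19.0 on the other arrays, and Fabp3, the muscle fatty acid binding protein, Csrp3, a Z-disc LIM protein, and Cox7a1, a muscle form of a cytochrome oxidase subunit, were at least 8.83-fold, at least 8.24-fold and at least 8.05-fold higher. Atp2a2, the calcium pump of slow fibres that is also the common pump of other cells, read 973 against 404 to 761 and missed the minimum.

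Sarcomere and energy genes shared by all fibres followed. Of 23 genes 16 were higher and 1 lower, with a median log2 difference of 2.15. Acta1, skeletal muscle actin, read 18842 on the array labelled 3 h, and 488, 322, 949.9, 2577 and 1616 on the other arrays. It was 20.7-fold above the mean of the other 5 and 7.31-fold above the highest, the 12 h array. Ckmt2, the mitochondrial creatine kinase of muscle, read 5325 against 4.92 to 24.2. Cox6a2, the striated muscle form of a cytochrome oxidase subunit, read 8830 against 52.9 to 138 (at least 61.6-fold). Ckm, muscle creatine kinase, read 3356 against 11.2 to 58.2 with a probe set of the family type, but a second probe set, annotated to the same gene, read 129 on the array labelled 3 h and 110 to 191 on the others.

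Z-disc and M-band genes were high too, Ldb3 at at least 20.7-fold, Nrap at at least 12.1-fold, the small heat shock protein Cryab at 7.02-fold and the myomesin Myom1 at 7.17-fold. A second probe set of Cryab read 44.0 on the array labelled 3 h and 23.3 to 144 on the others. The lower member was Tpm1, a tropomyosin that smooth muscle also makes, at 2396 against 5561 to 8064 (2.57-fold lower). Its relative Tpm2, likewise made by smooth and skeletal muscle, stood at 7596 against 1124 to 1307 (6.33-fold higher). Des, the intermediate filament protein desmin of all muscle kinds, read 922 against 584 to 976, within the range of the others. Of the 51 muscle genes counted as higher, 42 were read by a probe set of the single-gene type and 9 by types that similar genes can share. A second probe set above the floor on at least 1 array existed for 15 of them. It was also at least 1.5-fold higher for 10 and at least 1.5-fold lower for none. The rest did not follow and were slightly lower, such as Myh4 at a log2 difference of -0.33 and Ckm at -0.20.

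Coupling of the surface membrane to calcium release was represented by its channel genes. Ryr1, the calcium release channel of skeletal muscle, read 6394 on the array labelled 3 h, and 70.5, 62.7, 51.7, 64.1 and 32.1 on the other arrays, a difference of at least 44.6-fold. Cacna1s and Cacng1, subunits of the voltage sensor, read 1862 against 19.9 to 80.8 and 1278 against 15.7 to 94.1. Clcn1, the muscle chloride channel, was at least 6.57-fold higher and Hrc, a calcium-binding protein of the sarcoplasmic reticulum, 7.23-fold. Genes of the nerve-muscle junction were mostly not measured. Ache, the acetylcholinesterase that ends transmission there, read 371 against 27.8 to 62.6 (at least 2.58-fold). The receptor subunits Chrna1 and Chrnd and the kinase Musk were below the floor on all 6 arrays. Chrne, the adult receptor subunit, read 355 against 289 to 951. Of the 16 genes of this list 6 were higher and none lower, with a median of 0.39.

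Few of the factors that build muscle passed the minimum. Of 12 myogenic regulators 2 were higher and none lower, with a median of 0.20, or 1.09 with the floor at the 20th percentile. Myod1 read 311 against 278 to 430.1 and Myog 224 against 104 to 259, both inside the range of the others. Myf6, the factor most abundant in adult fibres, read 240.4 against 26.7 to 93.0, and Cdh15, the cadherin of muscle precursor cells, 224 against 11.7 to 55.8, both above the floor on this array only. The higher genes were Mef2c (2.37-fold) and Mef2d (2.18-fold), which other tissues also express. Of 14 isoforms of fetal muscle and heart 0 were higher and 0 lower by the minimum with their brightest probe sets. Second probe sets differed for Actc1, cardiac actin, at 202 against 2.81 to 8.14, and for Myl4, the atrial light chain, at 325 against 79.2 to 163. Myh3, the embryonic heavy chain, read 33.3 and Myh6, the atrial chain, 29.9, both below the floor on all arrays, and Myh8, the perinatal chain, was above it on this array only and read 185 against 16.2 to 50.6.

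Granulocyte genes formed the largest block from blood. Of 36 genes 30 were at least 2-fold higher, all 30 also above the highest of the other arrays, none was lower, and the median log2 difference was 2.82. S100a8 and S100a9 pair to form the calprotectin of neutrophils. S100a8 read 22210 on the array labelled 3 h, and 114, 233, 226, 145 and 104 on the other arrays. S100a9 read 17222 on the array labelled 3 h, and 16.8, 87.5, 78.2, 47.8 and 72.9 on the other arrays. S100a8 thus stood at least 128-fold higher, and S100a9 at least 120.1-fold, with every other array far below. Ngp, a protein of neutrophil granules, read 17025 against 22.6 to 52.6 (at least 119-fold), and Camp, the cathelicidin of secondary granules, read 21447 on the array labelled 3 h, and 286, 304, 186, 251 and 267 on the other arrays (84.0-fold). The nearest of the others, at 1 h, was 70.7-fold lower.

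Genes of each stage of granule formation were high. Of the primary granules made in promyelocytes, Mpo, myeloperoxidase, read 8182 against 17.3 to 61.5 (at least 57.0-fold), Elane, neutrophil elastase, 7231 against 212 to 453 (24.8-fold), and Prtn3, proteinase 3, 3808 against 29.9 to 157 (at least 26.1-fold). Of the later granules, Chil3 read 10030 against 66.6 to 101, and Mmp9, a gelatinase that osteoclasts make as well, 8648 against 17.6 to 213. A second probe set of Mpo read 162 on the array labelled 3 h and 53.5 to 114 on the others. Eosinophil genes were present at lower differences, Prg2 at at least 6.92-fold and Epx at at least 4.62-fold. Ltf and Lcn2, granule proteins that the uterine epithelium also makes under estrogen, were 5.03-fold and 14.1-fold higher. Lyz2, the lysozyme of macrophages and granulocytes, read 8640 against 1089 to 2012 and so was measured on all arrays.

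**Figure D3:**
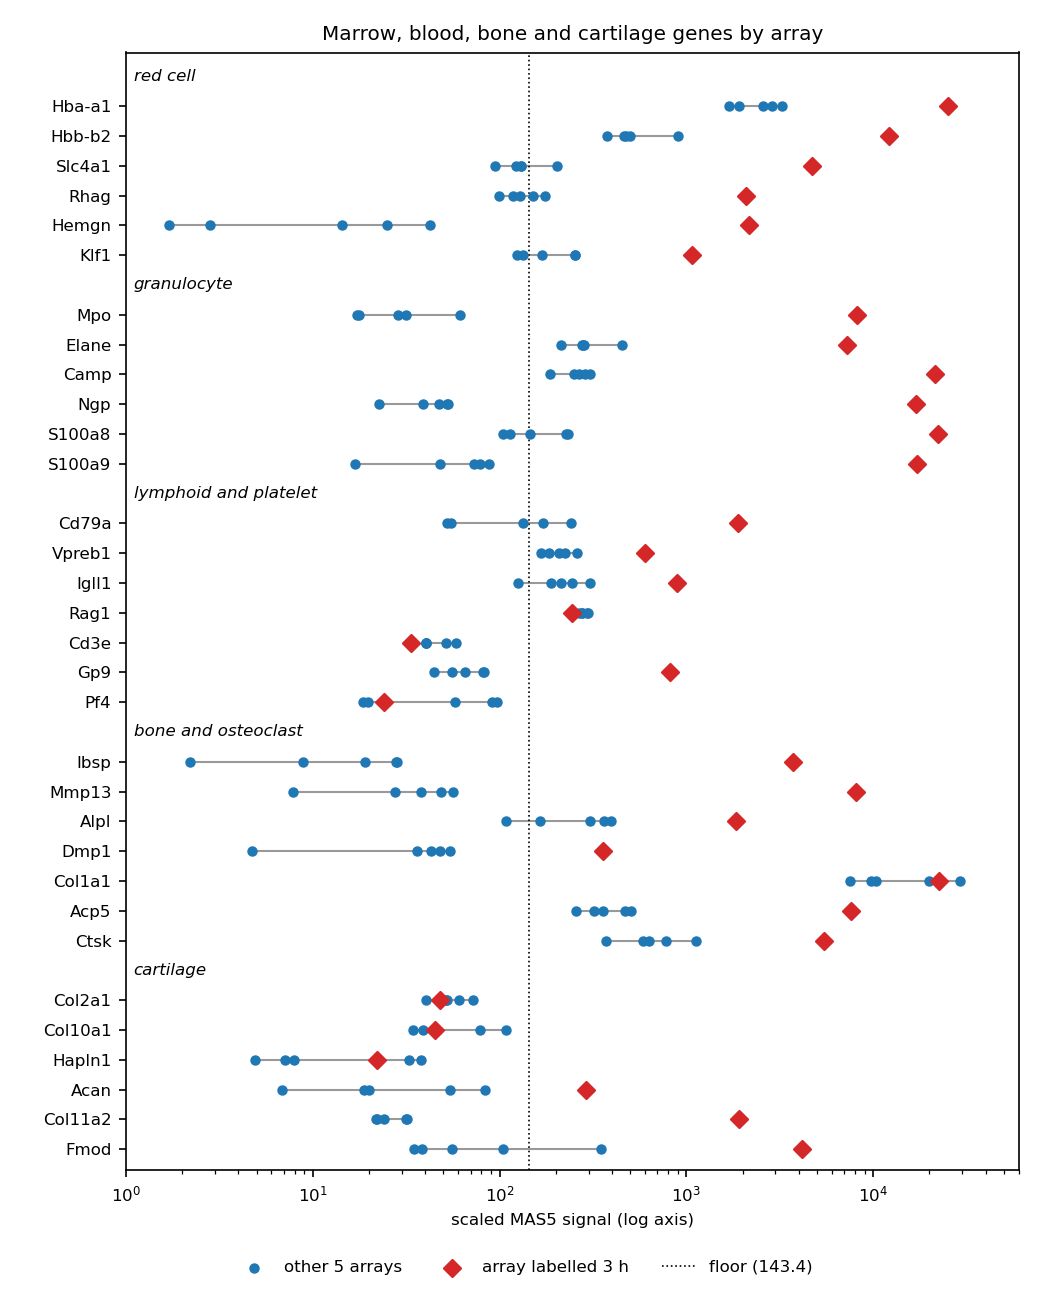
Scaled signal (horizontal log axis) of marrow, blood, bone and cartilage genes, with the array labelled 3 h as a diamond, the other 5 arrays as circles and the floor of 143.4 as a dotted line. Granulocyte and red cell genes, the B-cell genes other than Rag1, and the bone genes Ibsp, Mmp13 and Acp5 lie to the right of the other arrays. Rag1, with the probe set shown, lies just left of them, and Cd3e, Pf4, Col2a1 and Col10a1 stay below the floor on all 6.

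The promoters of the S100a8 and S100a9 pair are shown because both genes are among the highest and lie near each other on the chromosome, on opposite strands. They lie at chr3:90668921-90669070 on the plus strand and chr3:90695722-90695871 on the minus strand (GRCm38.p6, RefSeq). Capitals mark TATAAA and 2 CAGCTG matches in S100a8, and in S100a9 the GATA letters AGATAA and the Runx letters TGTGGT, the latter found on the opposite strand and so read as its reverse complement.
S100a8: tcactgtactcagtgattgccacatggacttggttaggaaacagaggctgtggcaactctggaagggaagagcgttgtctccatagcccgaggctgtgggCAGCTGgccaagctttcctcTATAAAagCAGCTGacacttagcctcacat
S100a9: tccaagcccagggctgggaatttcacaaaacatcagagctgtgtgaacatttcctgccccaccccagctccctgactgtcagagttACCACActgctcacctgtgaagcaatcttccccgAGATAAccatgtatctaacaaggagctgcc
Over 26 promoters of 25 granulocyte genes at 2-fold, AGATAA on either strand was found in 5 (19.2%) against 9.99% of all promoters, TGTGGT on either strand in 5 (19.2%) against 14.0%, and CAGCTG in 2 (7.69%) against 13.0%. The pair shares none of the motifs searched in the stretch printed.

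Red cell genes were high down to the regulators of the lineage. Of 25 membrane and regulator genes 17 were higher, 15 of them above the highest other array, none was lower, and the median log2 difference was 1.74. Slc4a1, the band 3 anion exchanger of the red cell membrane, read 4684 on the array labelled 3 h, and 95.1, 203, 131, 122 and 131 on the other arrays, a difference of at least 30.5-fold. Rhag and Rhd, proteins of the Rh complex, read 2081 against 99.2 to 175 and 982 against 24.1 to 71.4. Hemgn, hemogen of erythroid precursors, read 2169 against 1.71 to 42.3 (at least 15.1-fold). Klf1, the factor that turns on adult globin, read 1077 against 125 to 254 (at least 5.79-fold), and Nfe2, a second erythroid factor, 1284 against 20.8 to 139.8. Bpgm, which makes the bisphosphoglycerate of red cells, was 12.0-fold higher and Car1, a red cell carbonic anhydrase, at least 6.08-fold. Slc2a4, the insulin-regulated glucose transporter that muscle and fat also make, was on this list and read 1124 against 33.9 to 276. Tfrc, the transferrin receptor of many dividing cells, lay inside the range of the others at 2846 against 1515 to 4042.

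Adult globins were measured on all arrays and highest on the array labelled 3 h. Hba-a1, alpha globin, read 25256 on the array labelled 3 h, and 2567, 2868, 3234, 1925 and 1699 on the other arrays. Hbb-b2, a beta globin, read 12164 on the array labelled 3 h, and 497, 906, 466, 475 and 378 on the other arrays. Both stood apart from every other array, by 10.6-fold and 23.4-fold against the mean. Each has a near-identical copy whose transcript the probe set cannot be assumed to tell apart. The embryonic globins Hbb-y, Hbb-bh1 and Hba-x were under the floor on the array labelled 3 h at 59.7, 54.5 and 79.3. Of the 14 genes of globin and heme synthesis 4 were higher and none lower, with a median of 0.73. Enzymes of heme synthesis showed small differences, Urod at 2.55-fold, Ppox at 1.92-fold and Cpox at 1.83-fold, and Hmox1, which breaks heme down, was 2.35-fold higher.

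About as many B-lineage genes were higher as were not. Of 27 B-lineage genes 13 were higher, all 13 also above the highest other array, and 1 was lower, with a median log2 difference of 0.97. The median is at the minimum and passes it in some settings, such as 1.12 without the vehicle array, 1.02 without the 1 h array and 1.06 without the 24 h array. Cd79a and Cd79b, which signal for the B-cell receptor, read 1880 against 52.6 to 240.2 and 1484 against 24.4 to 176. Ighm, the heavy chain of IgM, read 6314 on the array labelled 3 h, and 1214, 1356, 1010, 754 and 813 on the other arrays (6.29-fold). Of the surrogate light chain of precursor B cells, Vpreb1 read 602 against 166 to 261 and Igll1 892 against 126 to 307. Vpreb3, also on the list, read 642 against 23.3 to 74.5. Rag1, which recombines antigen receptor genes, read 246 against 265 to 296 with its brighter probe set, and 570 against 2.01 to 7.83 with the dimmer. The lower gene was Sox4 (3.29-fold lower), which the uterus also expresses.

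Of 22 genes of T and NK cells 15 were below the floor on all 6 arrays, none was higher, and 1, Thy1, which stromal cells also make, was lower (691 against 997 to 2303). Cd3e, part of the T-cell receptor complex, read 33.5 against 40.2 to 58.6, and the summed signal of the list was 2449 against 2815 to 4360. Of 9 megakaryocyte genes 5 were higher and none lower, with a median of 1.38. That median is 0.077 with the floor at the 60th percentile and 0.96 against vehicle alone. Gp9, Gp1bb and Gp5, subunits of the platelet receptor for von Willebrand factor, read 816 against 44.4 to 83.0, 627 against 13.2 to 33.7, and 279.6 against 18.7 to 32.8. Pf4, platelet factor 4, stayed below the floor at 24.2 against 18.6 to 96.4.

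The list of blood progenitor genes held members that went both ways, 8 of 17 higher and 4 lower, with a median of 0.90, and 1.02 without the 6 h array. Higher were the leukocyte genes Ptprc, the common antigen CD45, at 1556 against 95.0 to 183 (at least 10.3-fold), Cd53 at 12.2-fold, Spi1, the myeloid factor PU.1, at 4.4-fold and Myb, a factor of immature blood cells, at 7.85-fold. Lower were 2 genes that stroma and vessels of the uterus also express, Gata2 at 399.6 against 2426 to 3421 (7.09-fold lower) and Cd34 at 374 against 1223 to 1971 (4.26-fold lower), together with Meis1 and Mecom. Kit, the stem cell factor receptor, read 392 against 142 to 295.

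Bone genes were led by those of mineralised matrix and its turnover. Of 34 osteoblast and matrix genes 16 were higher, 11 of them above the highest other array, 1 was lower, and the median log2 difference was 0.84. Without the 24 h array this median is 1.02, and with the floor at the 20th percentile 1.28. Mmp13, the collagenase of osteoblasts and growth plate, read 8138 on the array labelled 3 h, and 48.8, 27.5, 56.0, 38.2 and 7.84 on the other arrays, a difference of at least 56.7-fold. Ibsp, bone sialoprotein, read 3731 on the array labelled 3 h, and 19.1, 8.83, 2.21, 27.8 and 28.3 on the other arrays (at least 26.0-fold). With these probe sets both were below the floor on every other array. A second, dimmer probe set of Ibsp read 230 on the array labelled 3 h and was also above the floor at 6 h and 24 h, at 159 and 188 (log2 difference 0.57). Dmp1, a protein of osteocytes, read 356 against 4.72 to 54.2 (at least 2.48-fold), Omd, osteomodulin, 655 against 9.35 to 41.5 (at least 4.56-fold), and Alpl, the alkaline phosphatase that mineralisation needs, 1837 against 108 to 394 (at least 7.28-fold).

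The promoters of these leading bone genes are shown for the Runx letters, since Runx2 is the known regulator of osteoblasts. Mmp13 lies at chr9:7272364-7272513 and Ibsp at chr5:104299137-104299286, both on the plus strand (GRCm38.p6, RefSeq). Capitals mark, in Mmp13, the Runx letters read as the reverse complement of TGTGGT and TATAAA near the end, and in Ibsp the single E-box CAGCTG.
Mmp13: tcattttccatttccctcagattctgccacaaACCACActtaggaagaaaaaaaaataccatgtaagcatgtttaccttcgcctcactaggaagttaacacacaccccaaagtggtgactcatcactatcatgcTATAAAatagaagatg
Ibsp: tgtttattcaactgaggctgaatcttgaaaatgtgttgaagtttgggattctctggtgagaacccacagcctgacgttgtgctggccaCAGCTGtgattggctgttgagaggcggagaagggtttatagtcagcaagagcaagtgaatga
TGTGGT on either strand was found in 3 of 18 promoters (16.7%) of 13 bone genes at 2-fold against 14.0% of all promoters, CAGCTG in 6 (33.3%) against 13.0%, and TATAAA on the gene's strand in 4 (22.2%) against 7.59%.

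Matrix genes that the uterus makes as well were less apart. Col1a1, the main chain of type I collagen, read 22560 on the array labelled 3 h, and 10387, 7509, 9755, 19845 and 29215 on the other arrays, inside the range of the others, whose values differ among themselves. Col1a2, its partner chain, read 20372 against 2691 to 13156, but a second probe set read 773 against 1558 to 1773, the opposite way. Sparc, osteonectin, read 13618 against 2112 to 7266 (4.09-fold), Postn, periostin, 8290 against 1165 to 2618 (4.9-fold) and Serpinf1 8152 against 971 to 2196 (5.76-fold). The lower gene was Msx2 (10.5 against 212 to 436).

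Osteoclast genes were high in 9 of 15 cases, 7 of them above the highest other array, with none lower and a median of 1.29. Acp5, the tartrate-resistant acid phosphatase of osteoclasts, read 7593 on the array labelled 3 h, and 469, 506, 319, 256 and 356 on the other arrays (20.5-fold). Ctsk, cathepsin K, which digests bone collagen, read 5459 against 370.4 to 1124 (8.33-fold). Both were bright enough on all arrays to be measured on both sides. Nfatc1, the factor that drives osteoclast formation, read 774 against 139 to 229 (at least 4.39-fold), and the macrophage genes Csf1r and Cd68 were 3.99-fold and 2.8-fold higher. A second probe set of Csf1r read 162 on the array labelled 3 h and 150 to 278 on the others. The RANK gene Tnfrsf11a read 156 against 152 to 238, and Calcr, the calcitonin receptor, was below the floor on all arrays.

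Cartilage genes were not carried as a set. Of 26 genes 5 were higher and 2 lower, 10 were below the floor on all 6 arrays, and the median was 0.0. Col2a1, the main cartilage collagen, read 48.0 against 40.5 to 72.4, Col10a1, the collagen of hypertrophic cartilage, 45.0 against 34.5 to 108, and Hapln1, the link protein, 22.2 against 4.93 to 37.9, all below the floor. The higher genes were Fmod, fibromodulin, at 4160 against 34.7 to 348 (at least 24.3-fold), the fibrillar collagens Col11a2 (at least 13.3-fold) and Col11a1 (at least 4.66-fold), Matn4 (at least 6.48-fold), and Acan, the cartilage proteoglycan aggrecan, at 292 against 6.84 to 83.9 (at least 2.03-fold). Ihh, a growth plate signal that the uterine epithelium also makes, was lower at 85.0 against 179 to 578, and so was Matn2 at 560.4 against 617 to 2037. Of 10 tendon genes 3 were higher, Fmod, the tenascin Tnc at 3838 against 264 to 684 and Cpxm2. Scx, the tendon factor, read 1026 against 910.1 to 2103.

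Many genes of the uterine epithelium were low or below the floor, while 18 of 41 were neither 2-fold lower nor 2-fold higher. Of 41 epithelial genes 21 were at least 2-fold lower, 15 of them below the lowest other array, 2 were higher, and 16 were below the floor on this array alone. The median log2 difference was -1.09. It is -0.94 without the 1 h array, -0.85 with the median of a gene's probe sets, and -0.23 with the floor at the 60th percentile. Krt8, of the keratin pair of simple epithelia, read 107 on the array labelled 3 h, and 2203, 1709, 1750, 2101 and 2899 on the other arrays. Krt18, the other of the pair, read 65.2 on the array labelled 3 h, and 2295, 1525, 1265, 1162 and 1956 on the other arrays. Krt19, their partner in lumen and glands, read 5.22 on the array labelled 3 h, and 2208, 1867, 2073, 2826 and 3278 on the other arrays. All 3 were below the floor on the array labelled 3 h and bright on every other array, by at least 14.6-fold, at least 11.1-fold and at least 16.7-fold. A second, dim probe set of Krt19 read 5.92 against 94.6 to 221.

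Junction, surface and factor genes were lower with the keratins. Cdh1, the adhesion protein of epithelia, read 319 against 657 to 831 (2.41-fold) and so kept a measured signal. Muc1, the surface mucin, read 165 against 1422 to 3625 (11.7-fold), Elf3, an epithelial factor, 66.5 against 1567 to 2667 (at least 13.4-fold), and Msx1, a homeobox factor of uterine epithelium, 279.9 against 1009 to 2573 (6.13-fold). The tight junction claudins Cldn3, Cldn4 and Cldn7 were lower by at least 7.19-fold, at least 2.44-fold and at least 5.25-fold, respectively. Sprr2f, an epithelial gene that estrogen raises, read 29.2 on the array labelled 3 h, and 596, 747, 4813, 6836 and 8078 on the other arrays, so it was under all others, including vehicle. Wnt7a, a signal of the luminal epithelium, read 12.0 against 62.6 to 162, near or below the floor on all arrays, and allows no fold. The 2 higher genes were Ltf and Lcn2, described above with the granulocytes. Among the other arrays Lcn2 ranged from 221 in vehicle to 2438 at 24 h. A second probe set of Lcn2 read 160 on the array labelled 3 h against 210 to 253.

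**Figure D4:**
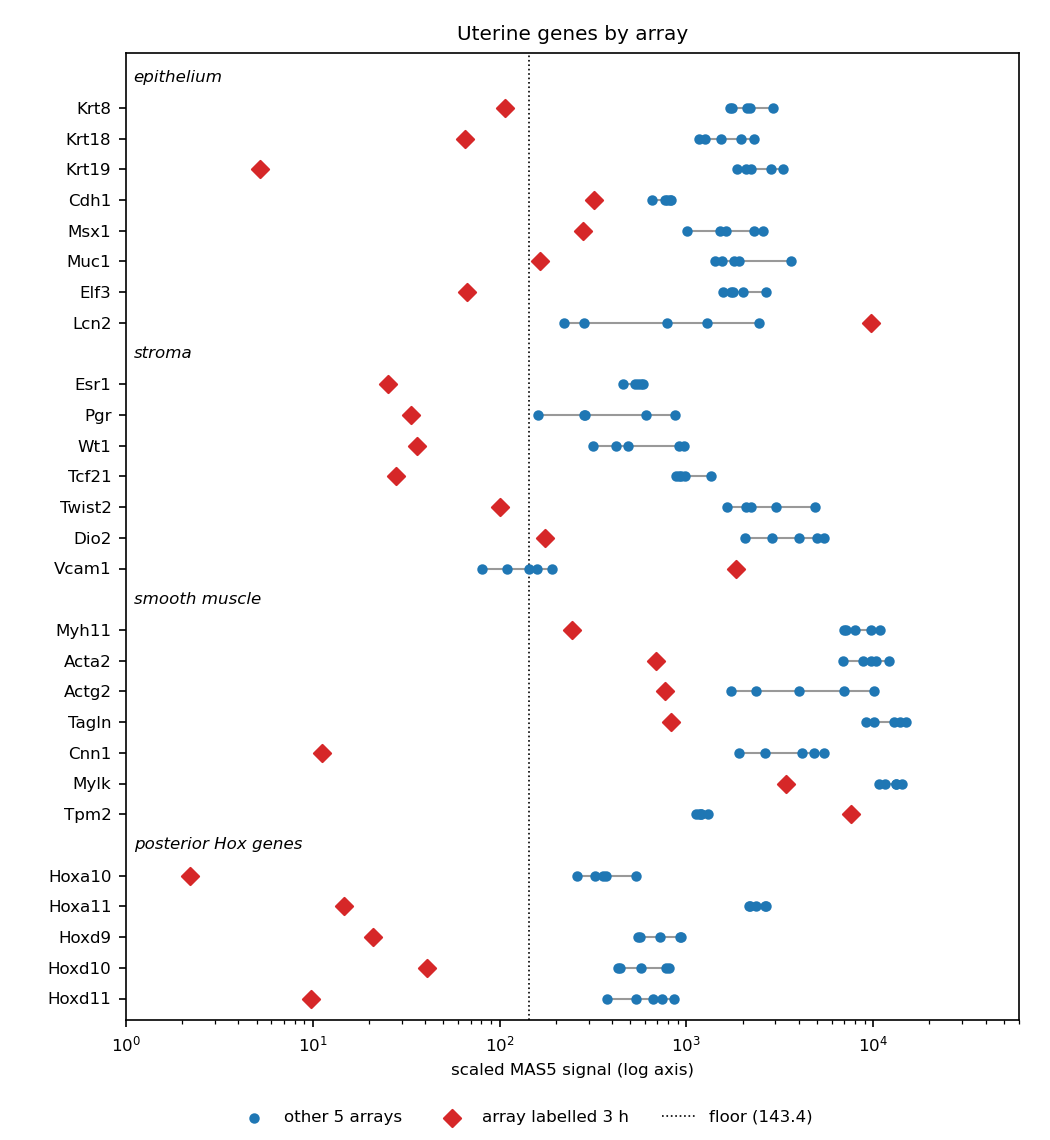
Scaled signal (horizontal log axis) of uterine genes and posterior Hox genes, with the array labelled 3 h as a diamond, the other 5 arrays as circles and the floor of 143.4 as a dotted line. The diamond lies left of all circles for the keratins, receptors, smooth muscle proteins and Hox genes shown, and right of them for Lcn2, Vcam1 and Tpm2.

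Of 42 genes of the uterine stroma 18 were lower, 10 of them below the lowest other array, 4 were higher, and the median was -0.51. Esr1, the estrogen receptor, read 25.3 on the array labelled 3 h, and 529.6, 585, 553, 459 and 573 on the other arrays. It was at least 3.75-fold lower, and the 3 other probe sets of Esr1, dimmer on every other array, were also lowest on the array labelled 3 h, at 11.1, 19.3 and 44.2. Pgr, the progesterone receptor that estradiol induces, read 33.7 on the array labelled 3 h, and 161, 286, 874, 605 and 282 on the other arrays (at least 2.57-fold), and only the vehicle array came near it, just above the floor. Wt1, a factor of the reproductive tract mesenchyme, read 35.9 against 318 to 975 (at least 3.94-fold).

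Tcf21, a factor of visceral fibroblasts, read 27.8 against 876 to 1348 (at least 6.95-fold), Twist2 101 against 1651 to 4909 (at least 17.9-fold) and Dio2, the deiodinase that activates thyroid hormone, 176 against 2048 to 5440 (20.7-fold). Hand2, a stromal target of progesterone, was near the floor on the other arrays at 143 to 241 and read 16.8. Among matrix and fibroblast genes, Dcn, decorin, read 10945 against 5990 to 24097 and Lum, lumican, 8343 against 2589 to 8237, both with no 2-fold difference. The 4 higher genes were Vcam1, an adhesion protein that marrow stroma also makes, at 1853 against 80.7 to 192 (at least 12.0-fold), Pkia, a kinase inhibitor also made in muscle, at 1962 against 9.85 to 166 (at least 13.3-fold), and the secreted Wnt antagonists Sfrp2 and Sfrp4, at 5.64-fold and 2.02-fold. The other 2 probe sets of Vcam1 gave log2 differences of 0.70 and 0.90.

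The myometrium was low in its contractile proteins. Myh11, the smooth muscle myosin heavy chain, read 244 on the array labelled 3 h, and 9749, 7170, 6979, 8032 and 10868 on the other arrays. It was 34.6-fold lower, the lowest log2 difference of all bright genes at -5.11. Acta2 and Actg2, the vascular and visceral smooth muscle actins, read 688 against 6933 to 12195 (13.7-fold) and 773 against 1742 to 10164 (5.31-fold). Unlike the keratins, these genes stayed above the floor. Cnn1, calponin, did not, and read 11.1 on the array labelled 3 h, and 2632, 1911, 4156, 5426 and 4831 on the other arrays (at least 24.6-fold). Tagln, which binds actin in smooth muscle, was 14.5-fold lower, and Mylk, the myosin light chain kinase, 3.65-fold. Of the 26 genes of the list 10 were lower, 9 of them below the lowest other array, and 2 were higher, Tpm2 and the gap junction gene Gja1 (6189 against 1301 to 4636). General cytoskeletal members such as Vcl, vinculin, at 3335 against 3033 to 3763 did not differ by the minimum, and the median was -0.46.

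Posterior Hox genes, which set the identity of the reproductive tract along the body axis, were lower in 7 of 11 cases, 5 of them below the lowest other array, and the remaining 4 were below the floor everywhere. The median log2 difference was -1.32, and -0.13 with the floor at the 60th percentile. Hoxa11, needed for the uterus and also for the forearm and lower leg, read 14.7 on the array labelled 3 h, and 2674, 2358, 2177, 2627 and 2182 on the other arrays (at least 16.7-fold). Hoxa10, the neighbour that specifies the uterus, read 2.21 on the array labelled 3 h, and 370, 534, 260.1, 325 and 358 on the other arrays (at least 2.5-fold). Hoxd9, Hoxd10 and Hoxd11 read 21.0, 41.0 and 9.84, against 553 to 939.5, 430.3 to 803 and 378 to 862. None of the 11 was above the floor on the array labelled 3 h except Hoxd8, at 278 against 671 to 1062. Among 17 genes that mark position in the limbs and trunk, 1 was higher and 3 were lower. The higher was Tbx15, a factor of limb and trunk mesenchyme and of fast muscle fibres, at 403 against 3.22 to 10.4. Pitx1, the hindlimb factor, was lower at 151 against 645 to 1493, with Hoxb6 at 42.9 against 757 to 1177 and Hoxb7 at 152 against 337 to 656.

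Lists of nerve, fat, skin, liver and endothelium held few higher genes. Over all genes 7.81% were at least 2-fold higher and 7.17% lower, and the counts of higher genes below are near or under that share. They are no measure of whether a tissue was absent. Of 14 peripheral nerve genes none was higher and 2 were lower. Of 16 fat genes 1 was higher, Lpl, the lipoprotein lipase that muscle and heart make as well (3734 against 432 to 1757), and 7 were lower, among them Retn, resistin, at 146 against 786 to 2429, Adipoq, adiponectin, at 1072 against 1467 to 4427, and the desaturase Scd1 at 2760 against 7362 to 16652. Ucp1 of brown fat was below the floor at 20.2. Of 27 skin and hair genes none was higher and 7 were lower, of which the desmosomal Dsp at 67.7 against 2150 to 7421 is made by uterine epithelium too. Of 16 liver genes 13 were below the floor on all arrays and 1, the carrier Ttr, was higher at 750.4 against 13.0 to 129.8. Alb, albumin, read 86.2 against 67.9 to 90.5. Of 21 endothelial genes 1 was higher and 3 were lower. The higher was Vwf, von Willebrand factor, which megakaryocytes make as well (1100 against 39.5 to 626), and the lowest was Sox17, which uterine epithelium also expresses (246 against 1015 to 3533).

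Some early response genes that were high at 1 h and 6 h were near vehicle on the array labelled 3 h, and others were not. Of 35 early response genes, chosen with their values on the arrays of this series known, 16 were lower, 5 of them below the lowest other array. A further 3 were higher and 16 were neither. The list is therefore no independent evidence of its direction. The median log2 difference was -0.89 against the other 5, -1.48 against the mean of the 1 h and 6 h arrays, and -0.05 against vehicle alone. It was -1.14 without the vehicle array and -1.03 without the 24 h array. Gadd45g, a stress response gene, read 331 on the array labelled 3 h, and 409, 9626, 8248, 2401 and 687 on the other arrays. Plk2, a kinase of the immediate early class, read 479 on the array labelled 3 h, and 661, 5333, 6480, 2101 and 882 on the other arrays. Both were below every other array on the array labelled 3 h, close to vehicle, and high on the arrays before and after it in time.

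Inhbb, an activin subunit, read 51.7 on the array labelled 3 h, and 141, 692, 3620, 1954 and 328 on the other arrays, below the floor on the array labelled 3 h and on vehicle. Srm, spermidine synthase, read 182 on the array labelled 3 h, and 369.6, 382, 3004, 2144 and 744 on the other arrays, so it was lower than vehicle too. Krt6a, an epithelial keratin, read 256 on the array labelled 3 h, and 758, 1289, 16387, 19830 and 31510 on the other arrays. Fos, the immediate early factor, read 847 on the array labelled 3 h, and 366, 1765, 887, 552 and 229 on the other arrays, inside the range of the others. The 3 higher genes were Ak1, adenylate kinase, which skeletal muscle makes in quantity, at 2990 against 114 to 1211, the phosphatase Dusp1 at 2309 against 478 to 1567, and the checkpoint gene Mad2l1 at 1139 against 243 to 1079.

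**Figure D5:**
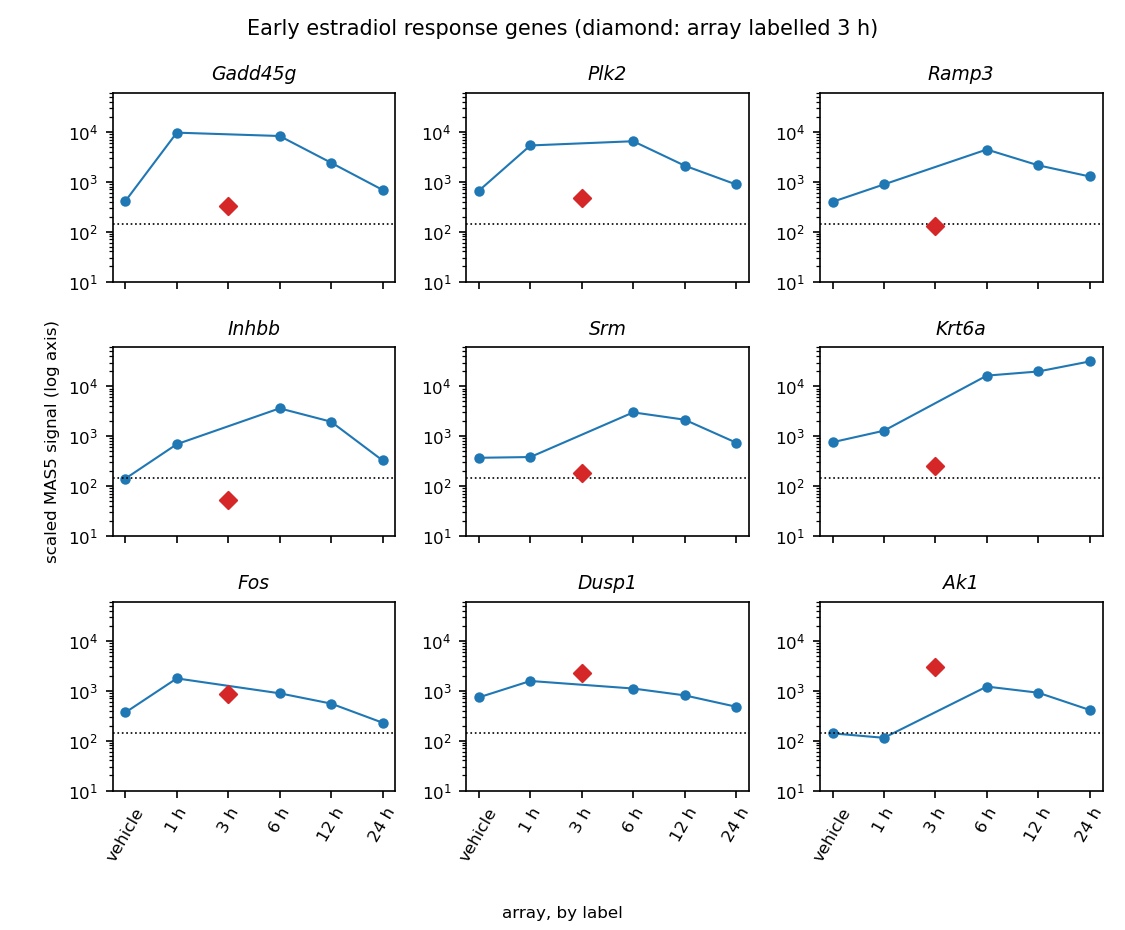
Scaled signal (vertical log axis) of 9 early response genes on each array, ordered by label (horizontal axis), with the array labelled 3 h as a diamond, the other 5 as joined circles and the floor as a dotted line. Gadd45g read 9626 (1 h), 331 (labelled 3 h) and 8248 (6 h), and Plk2 read 5333, 479 and 6480 on the same arrays.

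Genes used as a reference did not all stay level. Of 12 reference genes 2 were higher, 1 was lower, and the median was 0.06, which turns to -0.14 against vehicle alone and to -0.02 without the 24 h array. Polr2a, the large subunit of RNA polymerase II, read 2050 against 1613 to 2046, and Tbp, the TATA-binding protein, 283 against 217 to 357. Actb, cytoplasmic actin, read 1096 against 649 to 2089, and a second, family-type probe set 2517 against 439 to 1350. Rps3 and Rplp0, ribosomal proteins, read 8036 against 14977 to 24700 and 15395 against 23121 to 30719. Scaling the arrays to the same median in place of the same trimmed mean raised the share of higher among the called genes from 52.1% to 59.5%, with 710 genes higher and 483 lower.

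A further 3 lists were added after the values had been seen. Of 34 genes of the respiratory chain and the citrate cycle 5 were higher, 2 of them above the highest other array, none was lower, and the median was 0.72. Sdha of complex II read 1133 against 297 to 577, and Uqcrc2 of complex III 3030 against 538 to 1313. Of 29 genes of DNA replication and mitosis 11 were higher, 3 of them above the highest other array, none was lower, and the median was 0.78. Mki67, the proliferation antigen, read 2271 on the array labelled 3 h, and 230, 281, 192, 567 and 728 on the other arrays. It was 6.52-fold above the mean and 3.12-fold above the highest, the 24 h array. A second, dimmer probe set of Mki67 did not follow, at 69.75 on the array labelled 3 h and 108 to 224 on the others. Of 14 ribosomal protein genes 3 were lower and none higher, with a median of -0.82, and -0.72 when arrays were scaled to the same median. Rpl10a read 4364 against 10585 to 12963.

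Beyond the lists, 13 of the 50 most extreme genes were on none of them. The 3 at the high end were Eef1a2, the elongation factor of muscle and nerve, at 8694 against 131 to 478, Ifitm6 at 6125 against 94.0 to 188, and Wfdc21 at 4818 against 22.4 to 79.5. At the low end were 10 genes, most of which are known from epithelia: Wfdc2 (90.5 against 2115 to 5499), Perp (168 against 2078 to 10743), Plet1 (15.2 against 1946 to 7755), Sfn (148 against 580.1 to 8909), Sprr1a, Krt13, Adh1, Fxyd3, Rbpms and Cdcp1. Each of the 10 was below the lowest of the other arrays. The skeletal muscle, marrow, bone and uterine lists accounted for 163 of the 622 higher genes (26.2%) and 58 of the 571 lower genes (10.2%). They held 147 (35.6%) and 36 (15.4%) of those beyond every other array. The remaining lists were not part of these counts. Among the higher genes with a second measured probe set, it was at least 1.5-fold higher as well for 79 of 126 (62.7%) and opposite for 2, and among the lower genes it was lower as well for 62 of 130 (47.7%) and opposite for 2.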

How the data were processed

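The authors deposited 1 intensity per probe set and array on a linear scale, the output of MAS5 per the submitters' processing notes, in a version not given in the sources used here, with no detection calls. The 66 controls among 12488 probe sets were left out. As deposited, with controls, the arrays had 2% trimmed means of 500.2 to 500.3. Without the controls each array was rescaled to a common 2% trimmed mean. A floor was set at the 40th percentile over arrays (143.4), and log2 was taken of the floored values. Probe sets with a single symbol (10833) named genes, and 10817 were matched by gene identifier to RefSeq (GRCm38.p6). Genes of the sex chromosomes and mitochondrion were left out, and a gene took its brightest probe set. Of 7969 genes, 1599 were below the floor on all arrays. Such genes count in every list's total and median with a difference of 0.

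Members and lists were chosen with earlier results of these data known, and 3 of the 32 lists were added after the files were seen. Of 946 list entries, 690 matched as written, 2 by synonym and 246 not at all. The genes named are the 25 highest and 25 lowest whose brighter side reached the 60th percentile (354), up to 8 per list with the largest difference, the defining markers, and the early response and reference genes. Named outside this rule, after their values were seen, were Calcr, Casq1, Chrna1, Chrnd, Cldn3, Cldn4, Cldn7, Col1a2, Dcn, Des, Eno3, Epx, Fbp2, Gja1, Gpd1, Gpd2, Hba-x, Hbb-bh1, Hbb-y, Kit, Ltf, Lum, Lyz2, Mecom, Meis1, Mki67, Musk, Myh6, Pfkm, Prg2, Pvalb, Rpl10a, Sfrp2, Sfrp4, Sox4, Tfrc, Tnfrsf11a, Tpm1, Uqcrc2 and Vcl. With 1 array per group no test, p-value or SD was computed, and precision is limited by how few arrays there are. Alternatives changed the scaling, the floor, the choice of probe set, the reference arrays or left out 1 array. Python 3.11.15, numpy 2.4.6, pandas 2.3.3 and matplotlib 3.10.9 were used, and the counting was tested on simulated data.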

Additional observations from a re-analysis of the deposited data

Results flagged for a closer look

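Probe sets that named no single gene lay outside the range of the other arrays about as often as the named genes, or less often. Of 396 probe sets annotated to several gene symbols, 20 (5.05%) lay at least 2-fold above the highest of the other arrays and 10 (2.53%) at least 2-fold below the lowest. Of 1193 probe sets without a symbol, 41 (3.44%) lay above and 27 (2.26%) below in the same way. These stand beside 5.18% and 2.94% of the named genes. No group holds more than 1 array, so no array could be compared with replicates of its own group.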

How the results depend on the processing

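Of the 289 genes named by rule, 199 differed by 2-fold or more. Under at least 1 alternative 52 fell under 2-fold, and 2 turned over: with the floor at the 20th percentile Ckm went to -0.26 and Myh4 to -1.15, because this floor picks their other probe set. Scaling to the same median gave list medians of 1.08 for B lymphoid genes, 1.01 for blood progenitor genes and -0.997 for uterine epithelium. The floor at the 20th percentile gave 886 genes below the mean and 372 below the lowest array, and medians of 1.09 for myogenic regulators, 1.55 for B lymphoid genes, 1.28 for osteoblast genes and -1.11 for fat genes. The floor at the 60th percentile gave 295 and 116 genes, and medians of 0.077 for megakaryocyte genes, -0.13 for posterior Hox genes and -0.23 for uterine epithelium. The median of a gene's probe sets gave 1.33 for B lymphoid genes and -0.85 for uterine epithelium. Against vehicle alone 684 genes were higher and 784 lower, with medians of 1.03 for B lymphoid, 0.96 for megakaryocyte, 1.04 for blood progenitor, 1.22 for osteoblast, -1.28 for fat, 1.29 for DNA replication and -1.14 for ribosomal protein genes. Against the mean of 1 h and 6 h 388 genes lay below the lower array, with medians of 1.11 for B lymphoid, 1.16 for osteoblast and -1.48 for early response genes.

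Leaving out each of the other arrays in turn moved the medians of B lymphoid genes over 0.80 to 1.12, early response genes over -1.14 to -0.66, uterine epithelium over -1.17 to -0.94, blood progenitor genes over 0.76 to 1.02 and osteoblast genes over 0.79 to 1.02. The cause of these shifts across the minimum was not tested. The medians of fast fibre, slow fibre, common sarcomere, granulocyte, red cell membrane and osteoclast genes stayed past the minimum under all alternatives run. No paired analysis was possible because each group holds a single array. Probe sets under the floor carry no usable difference, and such genes are most of the liver, T and NK cell lists.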
